A study of Mus musculus with 8 samples.

Results

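4 genes, *Kcna6*, *Cadps*, *Chrnd* and *Luzp2*, were followed across mouse embryonic fibroblasts (MEFs) in which Polycomb repressive complex 2 (PRC2) had been inhibited or removed. The genes were grouped under the name of neuronal excitability and the synapse, which *Luzp2* bears only by where it is expressed. They are 4 of the 875 genes of the deposited expression table. They were chosen from their values in this table, as genes near 0 in control cells and in cells expressing H3.3 K27M, raised in cells expressing *EZHIP*, and unlike one another in *EED*-null cells. All 4 levels were used for that choice, so the differences of these genes between groups are given as descriptions, without a test. The table itself holds genes that differed between *EZHIP* and control cells: 99.1% of its genes were called in that comparison, and it does not stand for all genes of the cell.

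The table covers 8 RNA-seq libraries of total RNA depleted of ribosomal RNA, in 4 groups of 2. Control cells were the parental MEFs, isolated from embryos whose *EED* gene is flanked by loxP sites, and every other group was made from MEFs with these floxed alleles. Cells labelled EZHIP stably expressed human EZHIP, and cells labelled K27M stably expressed the H3.3K27M mutant histone, each delivered by a lentivirus from the EF1a promoter of a vector carrying puromycin resistance. The EED-null cells were a single clone, obtained after a lentivirus had delivered Cre recombinase in a hit-and-run manner. An empty-vector control was not analysed here. A difference between the EED-null clone and the other lines therefore cannot be told apart from a difference between clones, and the effect of transduction cannot be told apart from that of the transgenes. The sources used here do not state whether the 2 libraries of a group came from separate cultures, so p-values measure only the spread between these libraries, which may be technical.

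PRC2 places methyl groups on lysine 27 of histone H3, and the trimethylated form (H3K27me3) marks silent genes, many of them regulators and specialised genes of other cell types. EED is a core subunit that PRC2 needs for its activity, while EZHIP and the K27M histone each inhibit the enzyme through a methionine that stands in place of its substrate lysine. In neurons, voltage-gated potassium channels of the Kv1 family set the threshold and shape of action potentials, CAPS proteins prime secretory vesicles for calcium-triggered release, and nicotinic acetylcholine receptors respond to released transmitter. *Kcna6* encodes the Kv1 channel subunit Kv1.6, *Cadps* the priming protein CAPS1, and *Chrnd* the delta subunit of the nicotinic receptor of the muscle endplate. *Luzp2* encodes a leucine zipper protein expressed in the nervous system, whose function is little known.

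The promoters of the genes are shown because the design turns on a chromatin complex that in mammals is found at CpG-rich promoters. The genes, though chosen together, also differ in CpG count. RefSeq promoter windows of 300 bases (250 before and 50 after the start of the gene, build GRCm38.p6) were at hand for 3 of the 4 genes, and are printed 5′ to 3′ on the strand of the gene with CG dinucleotides in capitals. *Kcna6* lies at chr6:126740625-126740924 (minus strand), *Cadps* at chr14:12823030-12823329 (minus strand) and *Luzp2* at chr7:54834995-54835294 (plus strand).
Kcna6: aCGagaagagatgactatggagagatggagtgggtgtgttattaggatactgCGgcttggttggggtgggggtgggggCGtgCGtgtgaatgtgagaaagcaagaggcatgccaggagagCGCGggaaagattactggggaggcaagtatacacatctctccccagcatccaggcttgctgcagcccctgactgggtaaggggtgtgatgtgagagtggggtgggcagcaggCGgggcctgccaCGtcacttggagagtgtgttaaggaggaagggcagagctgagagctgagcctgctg
Cadps: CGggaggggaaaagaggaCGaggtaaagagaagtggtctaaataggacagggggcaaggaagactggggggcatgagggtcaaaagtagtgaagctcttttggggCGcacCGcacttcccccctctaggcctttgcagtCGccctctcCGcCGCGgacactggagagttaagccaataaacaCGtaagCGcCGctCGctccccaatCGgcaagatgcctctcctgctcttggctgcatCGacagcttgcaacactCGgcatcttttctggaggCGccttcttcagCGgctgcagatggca
Luzp2: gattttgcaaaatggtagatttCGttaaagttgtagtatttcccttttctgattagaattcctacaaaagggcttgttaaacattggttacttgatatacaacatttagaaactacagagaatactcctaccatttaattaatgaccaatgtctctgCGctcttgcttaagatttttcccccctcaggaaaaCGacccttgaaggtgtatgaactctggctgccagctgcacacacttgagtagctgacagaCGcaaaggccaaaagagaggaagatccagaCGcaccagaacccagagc
The *Cadps* window held 17 CG dinucleotides, more than 68.6% of the 32851 promoters of the same length, whose median was 7. The *Kcna6* window held 8, more than 51.4% of promoters, and the *Luzp2* window 5, more than 38.0%. The G+C share was 58.3% for *Kcna6*, 58.0% for *Cadps* and 41.3% for *Luzp2*, and the observed over expected CpG ratio was 0.384, 0.676 and 0.392. Hence by CG count *Cadps* stood above the middle of all promoters, *Kcna6* near it and *Luzp2* below it. By the observed over expected ratio *Kcna6* and *Luzp2* were close to each other, and that ratio was not set against all promoters.

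**Figure D1:**
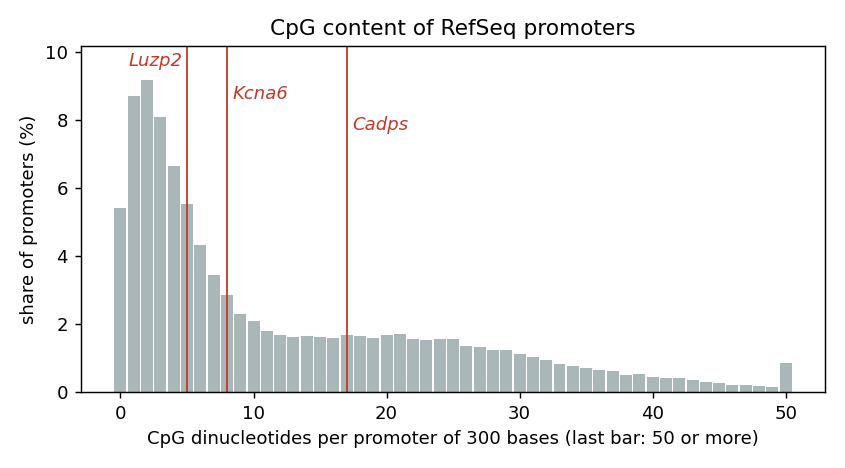
Distribution of the number of CG dinucleotides (x axis, count per window of 300 bases, with the last bar for 50 or more) over 32851 RefSeq mouse promoters (y axis, percent of promoters), with vertical lines at the counts of the 3 matched genes. *Luzp2* (5) and *Kcna6* (8) sit on either side of the median of 7, and *Cadps* (17) lies to the right.

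5 short motifs were searched on both strands. The E-box CANNTG, the site of basic helix-loop-helix factors, occurred at 1 place each in *Kcna6* and *Cadps* and at 2 in *Luzp2*, and 72.3% of all promoters held it. CCAAT, the letters bound by the factor NF-Y, occurred at 2 places each in *Cadps* and *Luzp2* and was not found in *Kcna6*, against 37.4% of all promoters with at least 1 match. No CCAAT match overlapped an E-box match. TATAAA (13.6% of promoters), GGGCGG (35.7%) and TTCAGCAC, part of the site of the neuronal gene repressor REST (1.17%), were not found in any of the 3 windows. These matches describe letters only.

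The deposited values are read estimates scaled between libraries, and between 72.2% and 82.5% of them per library were whole multiples of what 1 read is worth, 0.738 to 1.39 units. A floor of 3 reads thus corresponded to 2.21 to 4.16 units, depending on the library. Reads recovered on the 875 genes ranged from 209390 to 424561 per library, and replicates differed by more than sampling noise in every group (chi-square per gene of 1.57 to 3.65). The 95% intervals below cover the counting error of the reads alone. A lower value in bulk RNA can come from fewer cells that express a gene or from less RNA per cell, and these cannot be told apart.

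*Kcna6* (ENSMUSG00000038077.6, mm9 chromosome 6, 126658347 to 126690680, minus strand, with 1 exon of 3464 bases in its longest coding transcript) had up to 187 reads in a library, the most of the 4. Its value was 2.05 and 2.21 in the control libraries, against 99.4 and 99.2 with EZHIP, 2.78 and 0 with K27M, and 179 and 181 without *EED*. Both EZHIP and both EED-null libraries lay far above the rest, control and K27M overlapped at 0 to 3 reads a library, and EED-null lay above EZHIP without overlap. Group means were 2.13 ± 0.114 (SD, n = 2) for control, 99.3 ± 0.173 for EZHIP, 1.39 ± 1.97 for K27M and 180.0 ± 1.68 for EED-null. The EZHIP level was 46.3 times that of control (95% interval 19.4 to 144) and 73.5 times that of K27M (24.7 to 360). The EED-null level was in turn 1.82 times that of EZHIP (1.50 to 2.20). The annotation places a noncoding gene on the opposite strand, *Gm17456*, over the same locus, and the sources used here do not state whether counting used strand, so reads of the pair cannot be told apart.

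*Cadps* (ENSMUSG00000054423.6, mm9 chromosome 14, 13205077 to 13655593, minus strand, with 29 exons and 5478 bases in its longest coding transcript) was at 0 in both control libraries. It reached 16.6 and 31.9 with EZHIP, 1.85 and 1.75 with K27M, and 23.6 and 24.2 without *EED*. The EED-null libraries fell between the 2 EZHIP libraries, so these groups overlapped, while each K27M library held 2 reads. Mean values were 24.2 ± 10.9 with EZHIP, 1.80 ± 0.0754 with K27M and 23.9 ± 0.466 without *EED* (SD, n = 2 each). Against the floor of 3 reads over the control group, EZHIP was at least 18.9-fold higher and EED-null at least 18.6-fold higher. The ratio of EED-null to EZHIP was 0.982 (95% interval 0.625 to 1.54), and EZHIP exceeded K27M 13.5 times (4.92 to 52.0).

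*Chrnd* (ENSMUSG00000026251.6, mm9 chromosome 1, 89087227 to 89096644, plus strand, with 11 exons and 2948 bases in its longest coding transcript) had the fewest reads in EZHIP. It stood at 2.05 and 0.738 in control cells, 7.10 and 14.8 with EZHIP, 0.927 and 0.874 with K27M, and 1.39 and 0 without *EED*. Only the EZHIP libraries, with 6 and 13 reads, exceeded 3 reads, and the other 3 groups overlapped one another at 0 to 2 reads. Means were 1.40 ± 0.930 for control, 11.0 ± 5.46 for EZHIP, 0.901 ± 0.0377 for K27M and 0.693 ± 0.980 for EED-null (SD, n = 2 each). The EZHIP level was 8.56 times control (95% interval 2.52 to 45.2), 12.3 times K27M (2.96 to 109) and 19.3 times EED-null (3.08 to 804). These wide intervals leave the size of the difference loosely determined.

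*Luzp2* (ENSMUSG00000063297.6, mm9 chromosome 7, 62091329 to 62520736, plus strand, with 12 exons) was, like *Cadps*, at 0 in both control libraries. It stood at 55.6 and 60.4 with EZHIP, 0.927 and 2.62 with K27M, and 1.39 and 0.969 without *EED*. The EZHIP libraries, with 47 and 53 reads, were separate from all others, and K27M and EED-null overlapped at 1 to 3 reads a library. The EZHIP mean was 58.0 ± 3.39, the K27M mean 1.78 ± 1.2 and the EED-null mean 1.18 ± 0.295 (SD, n = 2 each). EZHIP was at least 45.1-fold higher than control at the floor of 3 reads over that group, 32.3 times K27M (95% interval 12.2 to 121) and 50.9 times EED-null (13.7 to 426). No fold between EED-null and control is given, since both were at or under the floor.

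**Figure D2:**
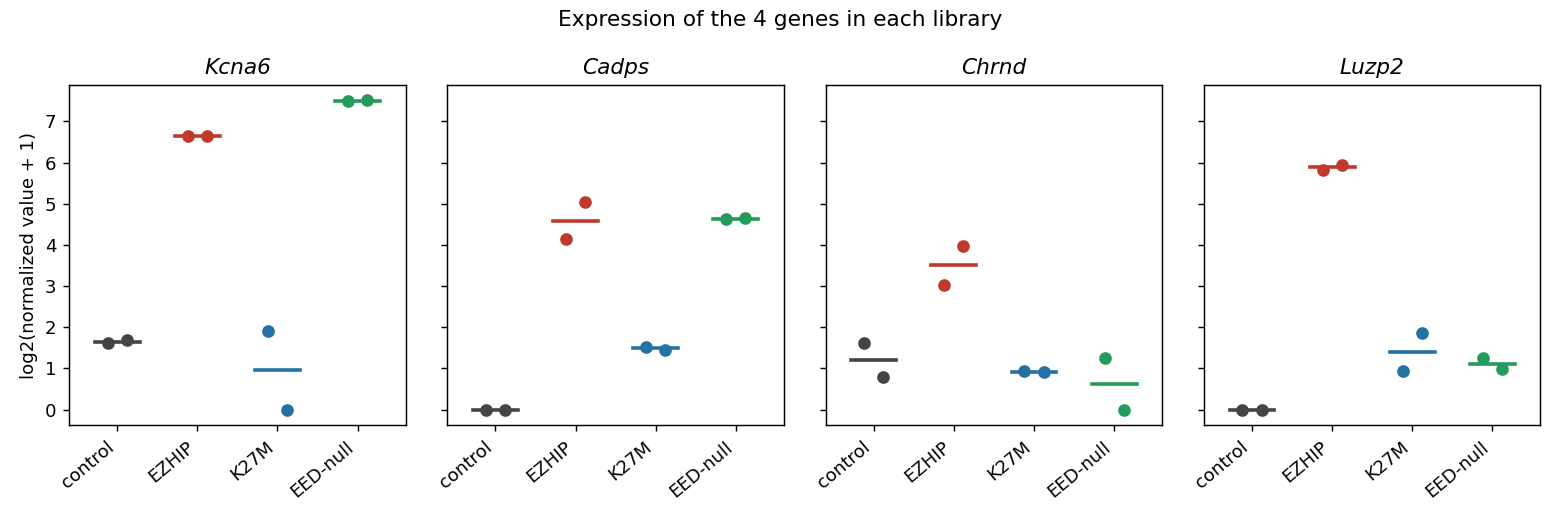
Scaled read estimates of the 4 genes on a log2(value + 1) axis (y), by group (x), where each point is 1 library and each horizontal line the mean of the 2 transformed values. All 4 genes are higher in EZHIP than in control and are low in K27M, whereas in EED-null *Kcna6* (180.0) and *Cadps* (23.9) are high and *Chrnd* (0.693) and *Luzp2* (1.18) are low.

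The genes thus fell into pairs by their level without *EED*. *Kcna6* and *Cadps* were high both in EZHIP and in EED-null cells, and *Chrnd* and *Luzp2* were high in EZHIP cells and at or under 3 reads in each EED-null library. On the log2(value + 1) scale, the difference of EED-null minus EZHIP was 0.85 for *Kcna6*, 0.05 for *Cadps*, −2.87 for *Chrnd* and −4.77 for *Luzp2*. For K27M minus EZHIP it was −5.69, −3.10, −2.57 and −4.48 in the same order, and for EZHIP minus control 5.0, 4.59, 2.30 and 5.88. The comparisons share the EZHIP libraries or the control libraries and so are not independent of each other.

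Every K27M library lay below every EZHIP library for 4 of the 4 genes, and the background share of such genes was 41.7% of the table. Every EED-null library lay below every EZHIP library for 2 of the 4 (*Chrnd* and *Luzp2*; background 39.8%) and above for 1 (*Kcna6*; background 46.6%). Relative to control, no overlap and a higher value was seen in K27M for *Cadps* and *Luzp2* (background 57.4%) and in EED-null for *Kcna6*, *Cadps* and *Luzp2* (background 53.7%). The levels behind the control comparisons of *Luzp2*, and that of *Cadps* in K27M, were at most 3 reads a library. For EZHIP above control the count was 4 of 4 (background 56.6%). Because the genes were chosen from these same levels, nothing is read from the counts.

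Among the EZHIP libraries, replicate 1 was the lower for *Cadps* (16.6 against 31.9) and *Chrnd* (7.10 against 14.8), while *Kcna6* and *Luzp2* were close to equal in both. The counting intervals of the 2 libraries overlapped for *Cadps* (9.06 to 27.8 and 21.2 to 46.1) and for *Chrnd* (2.61 to 15.5 and 7.89 to 25.3). Leaving out EZHIP replicate 1 moved the *Cadps* difference of EED-null minus EZHIP to −0.40 on the log2(value + 1) scale, and leaving out replicate 2 moved it to 0.50, so no order of these groups was resolved.

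The pattern that chose the genes was rare in the table when spelled out in reads. Of the 875 genes, 99 (11.3%) had at most 3 reads in both control libraries and more than 3 in both EZHIP libraries. In 71 of the 99 both K27M libraries also exceeded 3 reads, in 9 the K27M libraries were split, and in 19 (2.17% of the table) both K27M libraries were at or under 3 reads. Of the 19, 16 exceeded 3 reads in both EED-null libraries and 3 were at or under it in both. *Kcna6* and *Cadps* belonged to the 16, and *Chrnd* and *Luzp2* made up the 3 with *Shisa6*, an auxiliary subunit of AMPA-type glutamate receptors.

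The other 14 genes with the *Kcna6* and *Cadps* pattern were *2200002D01Rik*, *Fam181b*, *Foxf2*, *Foxl2*, *Nkx6-1*, *Otx2*, *Prdm6*, *Sall1*, *Sall3*, *Sema5b*, *Sox2*, *Syt13*, *Tcfap2c* and *Zic4*. *Otx2*, *Sox2*, *Nkx6-1*, *Sall1*, *Sall3* and *Zic4* encode developmental transcription factors, *Sema5b* a semaphorin of axon guidance and *Syt13* a synaptotagmin. Of the 4 genes, 2 stood at the edge of this count: *Kcna6* had 3 reads in 1 control and 1 K27M library, and *Luzp2* had 3 reads in 1 K27M library. Just outside it, *Gfra2* and *Six3* each had 5 reads in 1 K27M library.

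The genes of the table with the most similar levels were found by the mean absolute difference in log2(value + 1) over the 8 libraries, a measure of likeness that is descriptive only. For *Kcna6* they were *Syt13* (0.442), *Six3* (0.759), a homeobox factor of forebrain and eye, and *Prdm6* (0.784), and 11 genes lay within 1. *Syt13* stood at 2.05 and 1.48 in control cells, 80.5 and 55.9 with EZHIP, 1.85 and 0.874 with K27M, and 211 and 255 without *EED*. Like *Kcna6*, it was higher in both EED-null libraries than in either EZHIP library, and near 0 in K27M. *Six3* rose to a mean of 366 ± 7.57 in EED-null from 142 ± 13.5 in EZHIP (SD, n = 2 each).

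For *Cadps* the nearest were *Mmp12* (0.542), the macrophage elastase, *Cdh6* (0.554), a cadherin, and *Pgbd5* (0.566), a gene derived from a transposase, with 18 genes within 1. *Mmp12* was at 0 in both control libraries and averaged 35.8 ± 13.8 with EZHIP, 6.85 ± 4.74 with K27M and 20.0 ± 5.02 without *EED* (SD, n = 2 each). *Cdh6* averaged 36.7 ± 10.0 in EZHIP and 18.1 ± 5.96 in EED-null, and *Pgbd5* 13.4 ± 6.11 and 23.5 ± 3.80. Like *Cadps*, these genes were raised in both groups, with EZHIP the higher mean for *Mmp12* and *Cdh6* and EED-null for *Pgbd5*.

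For *Chrnd* a single gene lay within 1, *Shisa6* (0.481), followed by *Gfra2* (1.13) and *Luzp2* (1.14). *Shisa6* had 1.03 and 0 in control cells, 4.73 and 13.7 with EZHIP, 0 in both K27M libraries, and 1.39 and 0 without *EED*. As with *Chrnd*, its reads were few (4 and 12 in EZHIP) and EZHIP replicate 1 was the lower. For *Luzp2* the nearest were *Gfra2* (0.537), a co-receptor of the growth factor neurturin, *Kcnj15* (0.684), an inwardly rectifying potassium channel, and *Ano5* (0.785), an anoctamin, with 5 genes within 1. *Kcnj15* stood at 60.4 and 67.3 with EZHIP, 4.64 and 8.74 with K27M, and 0 in both control and both EED-null libraries. Like *Luzp2*, it was high in EZHIP alone among the 4 groups, though its K27M libraries, with 5 and 10 reads, exceeded the floor. Between the 4 genes themselves the measure ranged from 1.14 (*Chrnd* and *Luzp2*) to 2.85 (*Kcna6* and *Chrnd*), so each had neighbours closer than any of the others, *Chrnd* included.

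**Figure D3:**
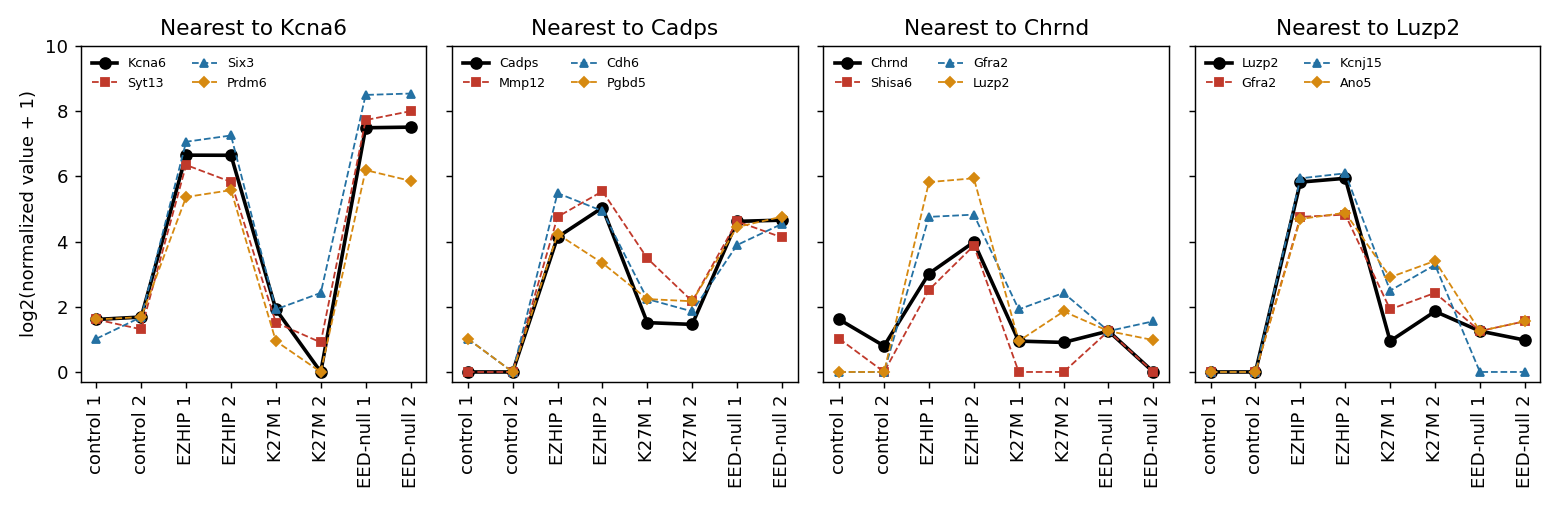
Values on a log2(value + 1) axis (y) in the 8 libraries (x) for each of the 4 genes (black line, 1 panel each) and its 3 nearest genes (dashed lines), where lines only join the points of a gene. *Kcna6* and *Cadps* and their nearest genes are high in EZHIP and EED-null, *Chrnd* and *Luzp2* and theirs in EZHIP.

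On the chromosome, the Kv1 relative *Kcna1* was the nearest listed gene to *Kcna6*, 62.5 kb away in mm9 and on the same strand. *Kcna1* encodes Kv1.1, a subunit that with other Kv1 subunits forms the low-threshold channels of axons. Its level was 2.05 and 0 in control cells, 111 and 112 with EZHIP, 20.4 and 12.2 with K27M, and 141 and 142 without *EED*. Both neighbours were thus high in EZHIP and EED-null, while *Kcna1* in K27M was above control in both libraries and *Kcna6* was not. *Kcna5*, the third Kv1 gene of the cluster, is not among the 875 genes. The limma difference of *Kcna1* was −2.75 for K27M minus EZHIP (SE 0.52, Benjamini-Hochberg adjusted p = 0.00308) and 0.34 for EED-null minus EZHIP (adjusted p = 0.572, limma). With a pseudocount of 0.1 the adjusted p of the first difference was 0.108, which ends that call. The main fit shares 1 spread over all groups, with the control libraries near 0 among them. In a fit of only the 2 groups compared, the adjusted p of the second difference was 0.0432 (limma), with the difference still under 2-fold. Listed neighbours of the other genes lay further off: *Ngef* at 0.277 Mb from *Chrnd*, *Ano5* at 3.24 Mb from *Luzp2* and *Thrb* at 4.84 Mb from *Cadps*. Over control, EZHIP, K27M and EED-null cells in that order, *Ngef* averaged 4.49, 61.5, 77.8 and 31.0, and *Thrb* 0.882, 19.1, 44.0 and 40.6, so neither shared the low K27M level of its neighbour. *Ano5* averaged 0, 26.7, 8.05 and 1.66 in the same order. On the other side lay the cyclin gene *Ccnd2* at 0.385 Mb from *Kcna6* (486, 1617, 2013 and 1731), *Sp100* at 1.48 Mb from *Chrnd* (336, 26.4, 447 and 2.36) and *Adamts17* at 11.5 Mb from *Luzp2* (31.2, 222, 16.6 and 110). Of these only *Adamts17* was, like its neighbour, higher in EZHIP than in any other group.

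To set the 4 genes among their kind, lists of ion channels, receptors and synaptic genes were matched to the table. The match was by gene name, without regard to where a gene is expressed. Of these lists 20 genes were present: 7 potassium channels and their subunits, 4 sodium and calcium channels, 4 genes of vesicle priming and release, 3 of synaptic adhesion and scaffold, 1 acetylcholine receptor subunit (*Chrnd*) and 1 other transmitter receptor (*Glrb*). *Luzp2* belongs to none of the lists, so its place under this name rests on where it is expressed. No monoamine or muscarinic receptor and no listed gene of the neuromuscular junction or of muscle, other than *Chrnd*, was in the table. The 17 listed genes other than the members were tested with limma, and a gene was called where its Benjamini-Hochberg adjusted p was under 0.05 and its difference 2-fold or more. In EZHIP relative to control, 11 were called higher (56.0% of the table) and 6 lower (43.1%), a comparison on which the table was selected. The other comparisons share the EZHIP or the control libraries with that selection. A gene near 0 in control is in the table because it is high in EZHIP. The p-values of these comparisons, those of *Kcna1* above among them, are therefore not those of unselected genes and serve as descriptions.

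Between K27M and EZHIP, 2 of the 17 were called higher in K27M, 4 lower and 11 not. That is 35.3% called, against 58.7% of the table, of which 32.6% were higher and 26.2% lower. Their median difference was −0.44 on the log2(value + 1) scale, against 0.13 for all genes. Within the genes higher in EZHIP than in control, the median was −0.63 for the 11 listed and −0.67 for the 495 of the table, and within those lower in EZHIP 0.91 for the 6 listed and 1.07 for the 380 of the table. This split uses the same EZHIP libraries, which favours opposite signs, so the listed medians are set only beside those of the table. The potassium channel list accounted for 3 of the 4 lower genes: *Kcnj15* (−3.13, SE 0.25, adjusted p = 7.10e-05, limma), *Kcnj2*, which encodes the inward rectifier Kir2.1 (−2.87, SE 0.18, adjusted p = 2.57e-05, limma) and *Kcna1*. *Kcnk6*, a background potassium channel, was higher in K27M (1.69, SE 0.24, adjusted p = 0.000832, limma). Of the vesicle genes *Syt13* was lower (−4.88, SE 0.27, adjusted p = 1.73e-05, limma), and *Syt7* (0.86) and *Syt12* (−0.42) were not called. The postsynaptic scaffold gene *Shank1* was higher in K27M (3.58, SE 0.33, adjusted p = 0.000126, limma), while *Shank3* (0.20) and *Homer2* (−0.02) were not called. Of the 4 sodium and calcium channels 0 were called by limma in this comparison. An unadjusted p under 0.05, and an adjusted one, was reached by 2 of them, *Cacna1h* (−0.70) and *Scn1a* (0.97), whose differences were less than 2-fold. Without K27M replicate 1 both *Scn1a* (1.19, adjusted p = 0.0346, limma) and *Scn7a* (−1.22, adjusted p = 0.00426, limma) were called, and *Scn1a* was called also with a pseudocount of 0.1 and without EZHIP replicate 2.

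Between EED-null and EZHIP, 5 of the 17 were called higher in EED-null, 2 lower and 10 not. That is 41.2% called, against 44.9% of the table, of which 25.1% were higher and 19.8% lower, and the median was 0.34 against 0.15 for all genes. Within the genes higher in EZHIP than in control, the median was 0.34 for the 11 listed and −0.18 for the 495 of the table. Within those lower in EZHIP it was 0.48 for the 6 listed and 0.46 for the 380 of the table. The split again uses the EZHIP libraries of the comparison. Both genes called lower in EED-null were inward rectifiers. *Kcnj15* was at 0 in both EED-null libraries against 51 and 59 reads in EZHIP (adjusted p = 3.79e-05, limma), the direction of *Chrnd* and *Luzp2*. *Kcnj2* differed by −1.03 (adjusted p = 0.00285, limma), a call that was lost with a pseudocount of 5 and without EED-null replicate 2. The higher genes were *Syt13* (1.77, SE 0.27, adjusted p = 0.00182, limma), *Cacna1h* (1.48, adjusted p = 0.000235, limma), the sodium channel *Scn1a* (1.92, adjusted p = 0.00195, limma), *Shank1* (1.64, adjusted p = 0.00516, limma) and *Homer2* (1.08, adjusted p = 0.000823, limma). The *Homer2* call was lost when libraries were rescaled.

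Against control, 13 of the 17 (76.5%) were called in K27M, 9 higher and 4 lower, beside 61.4% of the table, of which 41.4% were higher and 20.0% lower. With rescaled libraries 11 of the 17 were called, 7 higher and 4 lower, and higher genes made up 55.6% of all calls of the table in place of 67.4%. In EED-null 13 of the 17 (76.5%) were called, again 9 higher and 4 lower, beside 65.0% of the table, of which 39.9% were higher and 25.1% lower. With rescaled libraries 9 of the 17 were higher and 5 lower there, and higher genes made up 52.5% of all calls in place of 61.3%. Of the 495 genes of the table higher in EZHIP, 62.4% were called higher in K27M than in control and 4.85% lower. That split shares the control libraries with these calls, which favours higher ones. Of the 11 listed genes that were higher in EZHIP, 9 were called higher in K27M than in control. *Kcnj2* was called lower, close to the 2-fold threshold, and *Syt13*, near 0 in K27M like the 4 members, was not called. Among the 9, *Cacnb2*, a calcium channel subunit, averaged 1.99 in control cells, 75.4 with EZHIP and 52.1 with K27M, *Homer2* 0.882, 38.3 and 37.9, and *Shank3* 11.0, 87.2 and 101. *Kcnab2*, *Kcnc2*, *Kcnk6*, *Scn1a*, *Scn7a* and *Shank1* ran the other way from the members, with lower values in EZHIP than in control. *Scn1a*, for example, averaged 22.0 in control cells, 4.06 with EZHIP, 8.96 with K27M and 18.1 without *EED*. Rescaling the libraries moved the median of all genes by −0.43 for K27M minus control and by −0.39 for EED-null minus control, and by −0.12 for K27M minus EZHIP.

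**Figure D4:**
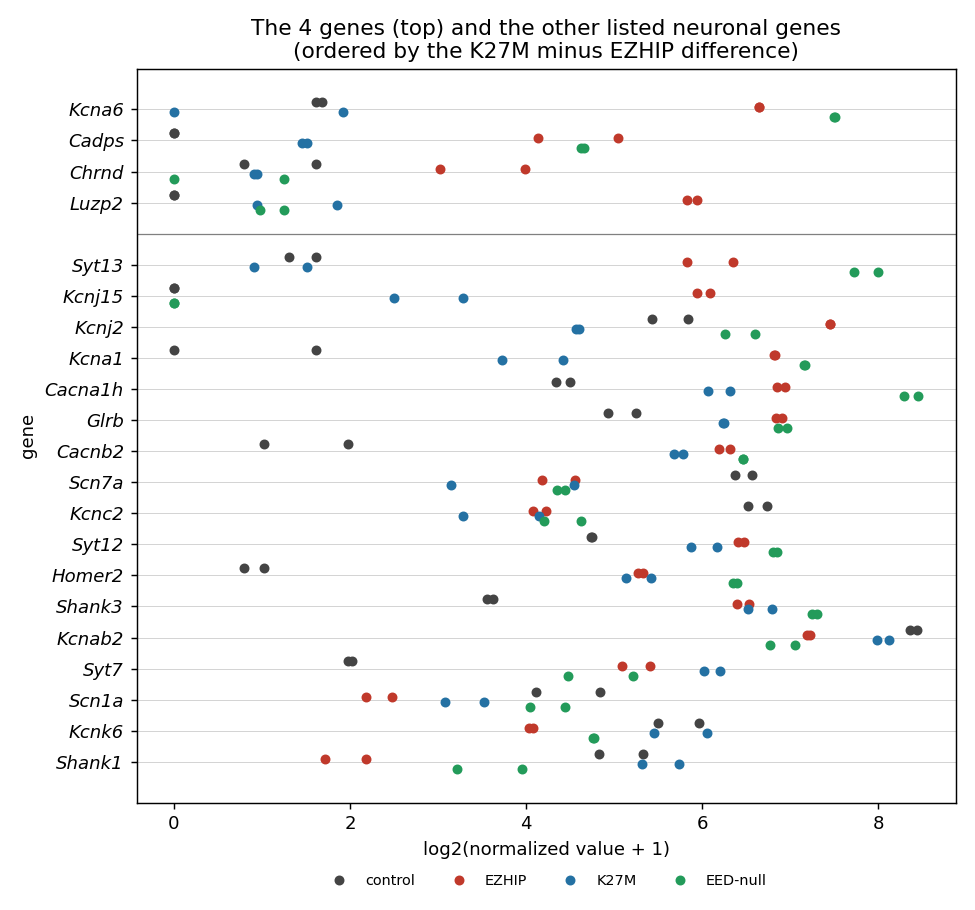
Values on a log2(value + 1) axis (x) of the 4 genes (above the line) and the 17 other listed channel, receptor and synaptic genes (rows), where each point is 1 library and colour gives the group. The 17 genes are ordered by the K27M minus EZHIP difference, from *Syt13* (−4.88) to *Shank1* (3.58), and *Kcnj15* is at 0 in the control and EED-null libraries.

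Of 15 neuron markers 1, *Stmn2*, was in the table, and it was lowest in EZHIP, where the 4 genes were high. It stood at 44.1 and 45.0 in control cells, 2.37 and 1.14 with EZHIP, 14.8 and 10.5 with K27M, and 73.5 and 39.7 without *EED*. Of 12 glial markers 3 were present (*Cspg4*, *Mbp* and *Slc1a2*), with summed levels of 1218 to 1273 in control cells, 731 to 752 with EZHIP, 987 to 1168 with K27M and 472 to 510 without *EED*. Most of the control sum was *Cspg4*, with means of 1208, 498, 451 and 199 over control, EZHIP, K27M and EED-null, and the other 2 ran against it, *Slc1a2* at 25.5, 204, 61.1 and 200 and *Mbp* at 12.4, 39.8, 565 and 91.7. None of 14 skeletal muscle markers was in the table, so the delta receptor subunit was not joined there by other listed muscle genes. Of 15 fibroblast markers 4 were present (*Col3a1*, *Dcn*, *Fap* and *Fbn1*), and their sum was 22435 to 22872 in control cells, 8421 to 9098 with EZHIP, 8031 to 8599 with K27M and 7085 to 7222 without *EED*. *Col3a1* and *Fbn1* made up most of the control sum, and in K27M *Dcn*, at a mean of 3224 against 372 in control, was higher (3.11, adjusted p = 1.10e-05, limma), while *Fap* averaged 133 against 88.3 and was not called. Markers outside the table were not analysed here, and the part of any change in cell composition in the members' levels was not tested.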

How the data were processed

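RNA-seq of MEFs was analysed in 4 groups (control, EZHIP, K27M, EED-null) of 2 libraries, grouped by their labels. The deposited signal values are gene-level read estimates that the authors obtained with RSEM (version 1.2.4, mm9, per the submitters' processing notes) and divided by a scaling factor per library. RNA of another cell type was spiked into each sample, and whether it entered the scaling is not given in the sources used here. The authors chose differential genes with EBSeq and a fold cutoff, and the table holds 875 genes. With a tolerance of 0.001, only 72.2% to 82.5% of values per library were whole reads, so no count model was run. Reads on these genes ranged from 209390 to 424561 per library, and intervals and floors cover counting error only. The number of sample columns not used was 0.

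The 4 genes and all gene lists were chosen with earlier results of these data known, and 1 gene that matched a list is not reported here and is left out of the list counts. Values were transformed to log2(value + 1), which understates the change of low genes, and fitted over all 875 genes and 8 libraries with limma 3.58.1 (R 4.3.3), with Benjamini-Hochberg adjustment over the table. A gene was called where its adjusted p was under 0.05 and its difference 2-fold or more. Ratios of the members came from reads pooled over each group, with exact binomial 95% intervals and a floor of 3 reads over a group at 0. The fit was tested on simulated data. Named genes were the members, the 3 nearest genes of each, up to 3 genes per list by the size of the K27M and EZHIP difference, relatives, cell type markers and the nearest listed gene on either side, and other genes were named after their values were seen. Loci are from GENCODE vM1 (mm9), and promoters from RefSeq (GRCm38.p6), which matched 3 members and 561 of the 875 genes, so promoter features were not compared over the table. Alternatives were pseudocounts of 0.1 and 5, a minimum mean of 5, rescaled libraries, calls by adjusted p alone, limma with a trend, a fit of only the 2 groups compared, a replicate block and leaving out each library. Rescaling divided each library by a median-ratio factor (0.810 in control replicate 2 to 1.14 in K27M replicate 2). The factors came from those of the 875 genes above 0 in every library. These genes were selected to differ, so rescaling can remove real shifts and is a check only. Python 3.11.15 with scipy 1.17.1 was used.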

Additional observations from a re-analysis of the deposited data

Results flagged for a closer look

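*Kcnj2*, which encodes the inward rectifier Kir2.1, was the 1 gene of the 17 other listed genes called in opposite directions relative to control in the cells expressing *EZHIP* (1.82, adjusted p = 9.84e-05, limma) and H3.3 K27M (−1.05, adjusted p = 0.00178, limma). It stood at 42.1 and 56.1 in control cells, 174 in both EZHIP libraries, 23.2 and 22.7 with K27M, and 95.7 and 75.6 without *EED*. Both EZHIP libraries lay above both control libraries and both K27M libraries below them. The K27M difference from control was close to the 2-fold threshold. It fell under 2-fold with a pseudocount of 5 and without control replicate 2, where the opposite call was lost. The difference of K27M minus EZHIP was −2.87 on the log2(value + 1) scale (adjusted p = 2.57e-05, limma). Groups of 2 libraries are too small for a check of single outlying samples.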

How the results depend on the processing

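The 4 members were followed in K27M minus EZHIP, EED-null minus EZHIP and EZHIP minus control. There the differences kept their direction under every alternative run, with 1 exception. *Cadps* in EED-null minus EZHIP, where the groups overlap, moved from 0.05 to −0.03 with rescaled libraries and to −0.40 without EZHIP replicate 1. Differences of the members in K27M or EED-null from control, some between values near the floor, were not followed, so their direction may change. Pseudocounts of 0.1 and 5 changed the log2 differences of low values. For K27M minus EZHIP they gave −7.53 and −4.06 (*Kcna6*), −3.60 and −2.05 (*Cadps*), −3.37 and −1.39 (*Chrnd*), and −5.12 and −3.23 (*Luzp2*). For EZHIP minus control they gave 5.48 and 3.87 (*Kcna6*), 7.85 and 2.50 (*Cadps*), 2.95 and 1.28 (*Chrnd*), and 9.18 and 3.65 (*Luzp2*). For EED-null minus EZHIP they gave −4.75 and −1.45 (*Chrnd*) and −5.53 and −3.35 (*Luzp2*), and *Kcna6* was 0.83 with a pseudocount of 5. Rescaled libraries gave *Kcna6* 0.77 for EED-null minus EZHIP and 4.77 for EZHIP minus control. A minimum mean of 5 removed *Chrnd*, which then has no value.

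Leaving out single libraries gave, for K27M minus EZHIP, −6.65 to −4.73 (*Kcna6*), −3.55 to −2.65 (*Cadps*), −3.06 to −2.09 (*Chrnd*) and −4.94 to −4.02 (*Luzp2*). For EED-null minus EZHIP it gave 0.84 to 0.86, −0.40 to 0.50, −3.50 to −2.25 and −4.90 to −4.63, and for EZHIP minus control 4.96 to 5.04, 4.14 to 5.04, 1.81 to 2.78 and 5.82 to 5.94, in the same order of genes. Calls among the 17 listed genes ranged from 6 to 8 for K27M against EZHIP, 6 to 7 for EED-null against EZHIP, 11 to 13 and 13 to 14 for K27M and EED-null against control, and 17 to 17 for EZHIP against control. Calls by adjusted p alone gave 12 for K27M against EZHIP in place of 6.

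Replicate numbers did not pair the libraries: deviations of same-numbered libraries correlated between −0.089 and 0.105 over the pairs of groups, and with a replicate block the counts were 6, 7, 13, 13 and 17, as without it. Single listed genes were followed in K27M minus EZHIP and EED-null minus EZHIP only, leaving out calls by adjusted p alone. Of 510 such values under alternatives, 501 stayed on the same side of the threshold in the same direction. Calls were lost in 4, gained in 5 and reversed in 0. Single-gene calls against control are not in this count. Among the gained calls were *Scn1a*, *Scn7a* and *Syt7* in K27M minus EZHIP. With 2 libraries a group, values of 1 to 3 reads limit what can be said of differences among low groups.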
